A study of Mus musculus with 12 samples.

Results

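The genes described here belong to the integrated stress response, the pathway that leads to the transcription factor ATF4, and to the amino acid metabolism under its control. The 34 members were chosen by symbol from a list drawn up with earlier results of these data known. Counts of called members are therefore a description and not independent of the choice. All 34 members are among the 25239 genes of the expression table. They are 4 genes for kinases and phosphatase subunits that act on eIF2α, 8 transcription factors and their partners, 6 stress effectors, 10 enzymes of amino acid and folate metabolism, and 6 amino acid transporters. The cells are HT22, an immortalised mouse line described as hippocampal neurons, and every group comes from this line. Mesaconitine (MA), a diterpenoid alkaloid of Aconitum plants, was given at 800 μM for 72 h, and control cells received none. Each condition has 3 input libraries, which measure the RNA of the cells, and 3 IP libraries, for which RNA carrying N6-methyladenosine (m6A) was pulled down with an antibody. The values deposited by the authors are comparisons of groups and reads pooled over the replicates of a group. A value for each library can therefore not be given, and replicate error is represented by the standard error (SE) of each fold change alone. Nothing in the sources used here says that the replicates came from separate cultures, so the p-values of expression measure the spread between these libraries. The m6A p-values come from a Poisson model of read counts, which has no term for that spread. The depth of single libraries is unknown.

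When amino acids run short, proteins misfold, or heme is lacking, kinases add a phosphate to the initiation factor eIF2α, and most translation slows. A few mRNAs with upstream reading frames, that of Atf4 among them, are then translated better. ATF4 forms dimers with C/EBP proteins, binds composite elements in promoters, and turns on genes for the synthesis and import of amino acids. Phosphatase subunits close the circuit by directing protein phosphatase 1 back to eIF2α. In neurons and neuronal lines this response is known from nutrient lack, oxidative stress and stress of the endoplasmic reticulum.

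The labelled identity of the cells was checked against marker genes, given here as base mean, the mean normalized count over libraries. Of 8 neuron markers, 5 were listed at 0 (Map2, Snap25, Nefl, Nefm and Dcx), and Tubb3 had a base mean of 473. All 3 markers of hippocampal granule neurons were listed at 0, whereas all 4 fibroblast-like markers exceeded 100, with Col1a1 at 100160 and Col1a2 at 129498. Their summed level was 231376, against 479 for the neuron markers. Slc1a3 (base mean 1140) was the only one of 4 astrocyte markers above 100, Tmem119 (303) the only one of 5 microglia markers, and none of 4 oligodendrocyte markers reached 100. By adjusted p, 3 of the 4 fibroblast-like markers, Tubb3, Slc1a3 and Tmem119 were lower after MA treatment, and no marker of these lists was higher. The part of these differences in the results below was not tested, and in bulk RNA fewer cells of a type and less RNA per cell cannot be told apart.

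Members in all 5 roles rose after MA treatment, the enzymes most often, and 0 fell. The deposited table does not name the group in the numerator of its fold change, so this direction, and every direction of expression given here, is inferred and rests on reversing the deposited sign. An adjusted p under 0.05 by DESeq2 in the authors' deposited table, read with the sign reversed, was found for higher expression of 16 of the 31 members with an adjusted p, and for lower expression of 0. Among all 13427 genes with an adjusted p, 7.07% were higher and 8.27% were lower by the same rule. At an unadjusted p under 0.05 the number of lower members was also 0. The median log2 fold change was 0.30 over the 33 members with a value and -0.012 over all genes, and 28 of the 33 members lay above 0. Over all genes with a value, 7806 of 16178 lay above 0. The changes were of moderate size. The 16 higher members ranged from 1.16-fold to 2.04-fold, with SEs between 0.05 and 0.16 on the log2 scale, and 5 of them exceeded 1.5-fold. The 15 members that were tested and not called ranged from 0.875-fold to 1.75-fold.

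**Figure D1:**
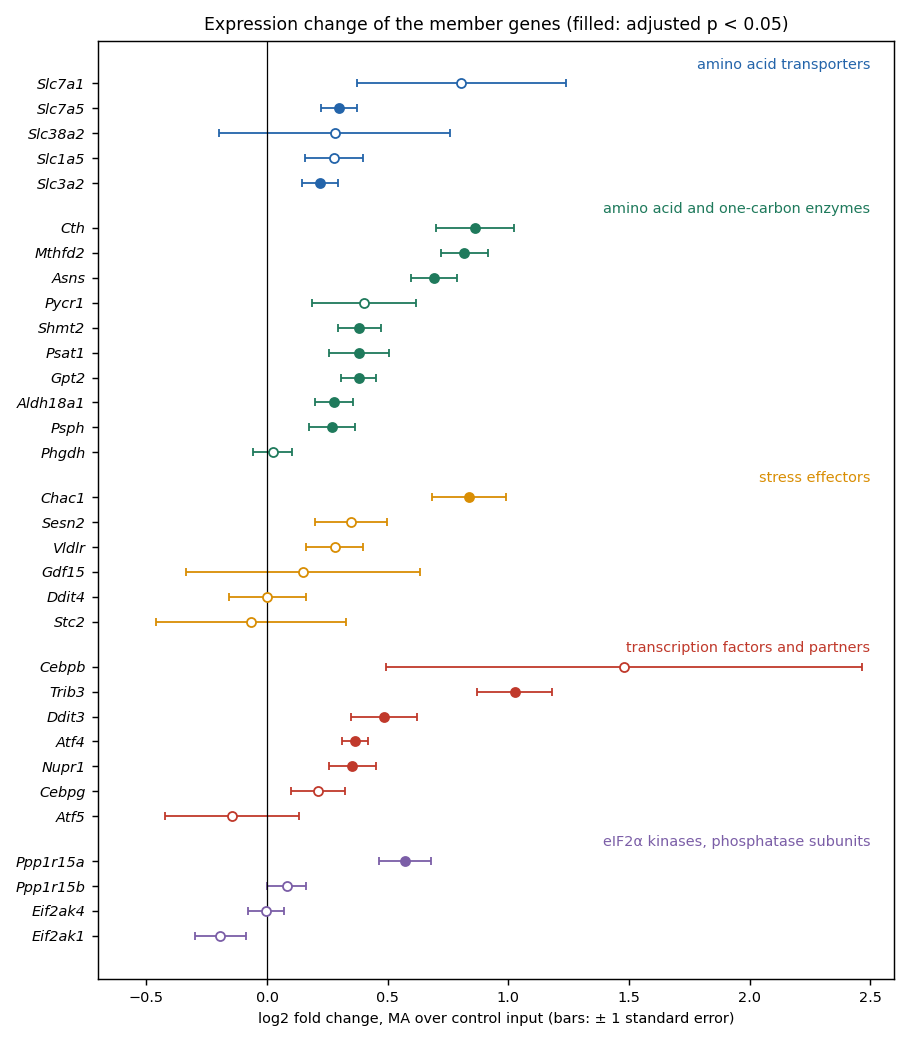
Log2 fold change of MA over control input (x axis) for the 32 members with a base mean of at least 10, grouped by role; points are the deposited values with the sign reversed, bars are ± 1 SE, and filled points have an adjusted p under 0.05. All 16 filled points lie to the right of 0, 8 of them among the enzymes, while Cebpb, Slc7a1 and Slc38a2 carry the widest bars among members with a base mean above 100.

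Of the 4 members that set the phosphorylation of eIF2α, 1 phosphatase subunit was higher and the others were not called. Ppp1r15a encodes GADD34, the stress-induced subunit that brings protein phosphatase 1 to eIF2α, and it was higher with a log2 fold change of 0.57 (SE 0.11, adjusted p = 3.99e-06 by DESeq2). Its constitutive counterpart Ppp1r15b (CReP) had a log2 fold change of 0.08, with a 95% interval from -0.08 to 0.24. The kinase genes were not called either. Eif2ak4 (GCN2), which senses uncharged tRNA, was at -0.01 with an interval from -0.15 to 0.14, and Eif2ak1 (HRI), which senses heme lack and mitochondrial stress, was at -0.19 with an interval from -0.40 to 0.01. The other kinases of eIF2α are not members. Eif2ak2 (PKR), which binds double-stranded RNA, was lower at -0.43 (SE 0.05, adjusted p = 2.69e-15 by DESeq2), whereas Eif2ak3 (PERK), the kinase of the endoplasmic reticulum, was higher at 0.29 (SE 0.05, adjusted p = 4.15e-06 by DESeq2). Of the 4 kinases of eIF2α, 1 was thus higher and 1 lower at the RNA level, and none of these values measures phosphorylation.

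Of the 8 transcription factors and partners, 4 were higher, among them Atf4 itself. Atf4 rose by a log2 fold change of 0.36 (SE 0.05, adjusted p = 9.32e-10 by DESeq2), or 1.29-fold, from the highest level of any member per length of transcript, with a base mean of 14266 per kb. Trib3, a pseudokinase that binds ATF4 and dampens its activity, had the largest change of any called member at 1.03 (SE 0.15, adjusted p = 1.64e-09 by DESeq2). Ddit3, which encodes CHOP, was higher at 0.48 (SE 0.14, adjusted p = 0.00467 by DESeq2), and Nupr1, a stress-induced chromatin protein, at 0.35 (SE 0.10, adjusted p = 0.00332 by DESeq2). Per length, Ddit3 (8301 per kb) and Nupr1 (5375 per kb) came next after Atf4 in level. The tables hold no spread of single levels, so it cannot be said which neighbours in this order differ.

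The remaining factors gave no call. Cebpg, which pairs with ATF4, was at 0.21 (SE 0.11, adjusted p = 0.229 by DESeq2), and Atf5, a relative of ATF4, at -0.15 (SE 0.28, adjusted p = 0.834 by DESeq2). Cebpb had the largest fold change of all members, 1.48, but also an SE of 0.99 and no p-value. DESeq2 leaves out the p-value of a gene with counts it marks as extreme in a library. Atf3, a factor of the same family that ATF4 induces, was listed at 0 and could not be compared.

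Among the stress effectors, 1 of 6 was called. Chac1, which degrades glutathione and is a sensitive ATF4 target, was higher at 0.84 (SE 0.15, adjusted p = 1.67e-06 by DESeq2), or 1.78-fold. Sesn2, which restrains mTORC1 when leucine is low, was at 0.35 (SE 0.15, adjusted p = 0.107), and Vldlr, a lipoprotein receptor, at 0.28 (SE 0.12, adjusted p = 0.0928), both by DESeq2 and both not called. Ddit4 (REDD1), another inhibitor of mTORC1, was at 0.00 with a 95% interval from -0.31 to 0.32. The secreted proteins Gdf15 and Stc2 had base means of 33.5 and 89.3 and 95% intervals of the log2 fold change from -0.80 to 1.10 and from -0.84 to 0.70.

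The enzymes formed the class with the most calls, 8 higher of 10, with a median log2 fold change of 0.38 and every value above 0. Mthfd2, a mitochondrial enzyme of the folate cycle, was higher at 0.82 (SE 0.10, adjusted p = 6.25e-15 by DESeq2) and stood at rank 113 by p among 16167 genes, the best rank of any member. Asns, which makes asparagine, was higher at 0.69 (SE 0.10, adjusted p = 4.82e-11 by DESeq2). Cth, which makes cysteine from cystathionine, was higher at 0.86 (SE 0.16, adjusted p = 2.78e-06 by DESeq2). These 3 enzymes, with Trib3 and Chac1, are the 5 called members above 1.5-fold.

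The serine branch moved unevenly. Psat1 and Psph, which catalyse its later steps, were higher by 0.38 (SE 0.12, adjusted p = 0.0172) and 0.27 (SE 0.10, adjusted p = 0.0348) in the DESeq2 comparison. Phgdh, which opens the branch, was at 0.02, with an interval from -0.13 to 0.18. Its value is uncertain, because 56.8% of its stretches of 50 bases (21 of 37) also occur in transcripts of other genes, such as the pseudogene Phgdh-ps1, and the share was at most 5.36% in the other members. Shmt2, the mitochondrial enzyme that takes 1 carbon from serine and feeds the step of Mthfd2, was higher at 0.38 (SE 0.09, adjusted p = 0.000353 by DESeq2).

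Gpt2, a mitochondrial alanine transaminase, was higher at 0.38 (SE 0.07, adjusted p = 6.4e-06 by DESeq2). In the proline branch, Aldh18a1, which makes the first committed intermediate, was higher at 0.28 (SE 0.08, adjusted p = 0.00518 by DESeq2). Pycr1, which catalyses the last step to proline, had a larger value of 0.40 but an SE of 0.22 and an adjusted p of 0.233 by DESeq2. Among the transporters, 2 of the 5 with an adjusted p were higher, and these are partners in 1 complex. Slc7a5 (LAT1), which carries large neutral amino acids such as leucine, was higher at 0.30 (SE 0.07, adjusted p = 0.000922 by DESeq2). Slc3a2, the heavy chain that holds it in the membrane, was higher at 0.22 (SE 0.07, adjusted p = 0.0269 by DESeq2), the smallest change of the called members. Slc1a5 (ASCT2), a glutamine exchanger, was at 0.28 (SE 0.12, adjusted p = 0.109 by DESeq2). Slc7a3 had a base mean of 3.41 and no adjusted p.

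Several members combined a clear level with an unusually wide error. The SE of each gene was set beside the median SE of genes whose base mean lay within a factor of 2 of its own. Slc38a2 (SNAT2), a sodium-coupled carrier of neutral amino acids, was at 0.28 with an SE of 0.48, 6.42 times that median. Slc7a1 (CAT1), a carrier of arginine and lysine, was at 0.81 with an SE of 0.43, 4.76 times. The ratio was 7.43 for Cebpb and 2.49 for Atf5. These are 4 of the 30 members with a base mean of at least 100, or 13.3%, and 5.02% of all 10438 such genes exceeded a ratio of 2. The fold change of Slc7a1, 1.75, was close to those of Mthfd2 and Chac1, but its SE was wider and it was not called (adjusted p = 0.233 by DESeq2).

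**Figure D2:**
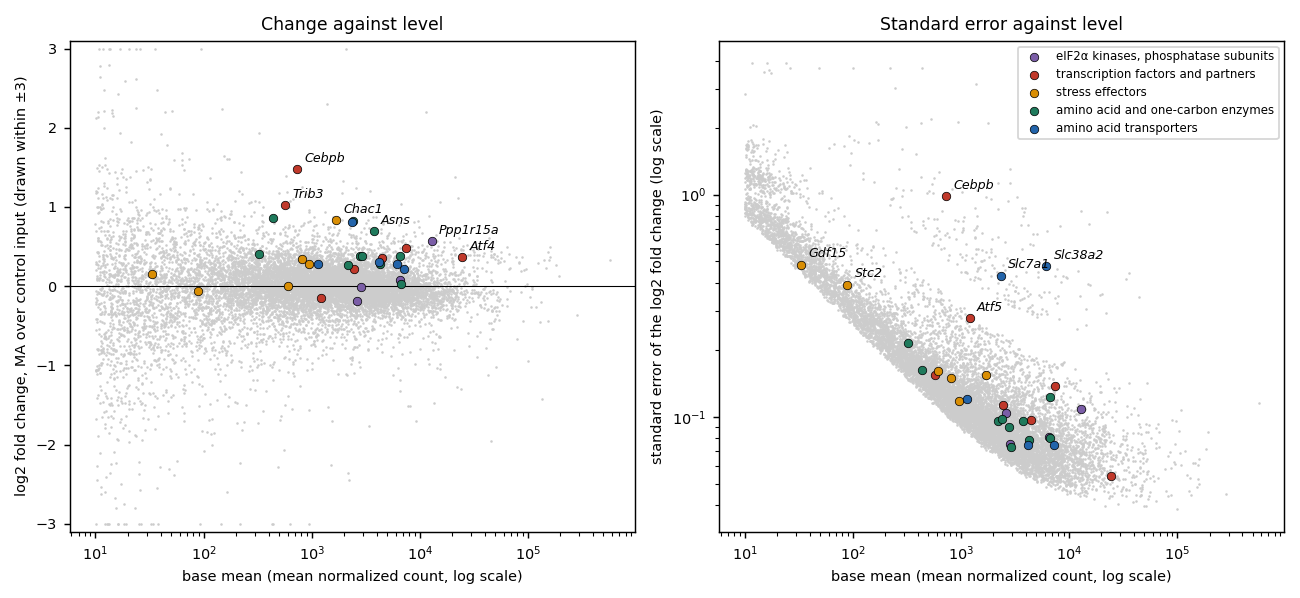
Left, log2 fold change of MA over control input against base mean (log axis), with values beyond ±3 drawn at the edge; right, SE of the log2 fold change against base mean (both log axes). Grey points are all genes with a p-value and a base mean of at least 10, and coloured points are members by role; most members lie above 0 on the left, and Cebpb, Slc38a2, Slc7a1 and Atf5 lie above the main band on the right.

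A further 46 genes of the pathway were read in the same way, from the eIF2 and eIF2B subunits to other targets of ATF4. Of the 43 with an adjusted p, 10 were higher and 4 were lower, against 7.07% and 8.27% of all genes, and their median log2 fold change was 0.08. Of the 8 eIF2 and eIF2B subunits, 0 were called by adjusted p and 3 had an unadjusted p under 0.05. The higher genes with the smallest p-values were Got1, an aspartate transaminase, at 0.62 (SE 0.08, adjusted p = 2.02e-14 by DESeq2), Eif4ebp1, an inhibitor of cap-dependent translation, at 0.50 (SE 0.07, adjusted p = 1.43e-11 by DESeq2), and Vegfa, an angiogenic factor, at 0.46 (SE 0.07, adjusted p = 1.65e-10 by DESeq2). Impact, which inhibits GCN2, was higher at 0.61 (SE 0.11, adjusted p = 2.14e-06 by DESeq2). Aldh1l2, a mitochondrial folate enzyme, Herpud1, a factor of protein degradation at the endoplasmic reticulum, and Xpot, an exporter of tRNA, were higher by 0.37, 0.47 and 0.28. Cebpd, another C/EBP factor, was lower at -0.78 (SE 0.10, adjusted p = 6.45e-12 by DESeq2). Slc7a11, the cystine carrier, was at -0.05 (SE 0.14, adjusted p = 0.899 by DESeq2) and gave no call.

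The promoters were searched for the composite element that ATF4 and C/EBP proteins bind. The rule names genes and uses no sequence, but several members are known as ATF4 targets through this element, so its share among them is a description and not independent of the choice. RefSeq promoters of GRCm38.p6, from 250 bases before to 50 bases after the start of the gene, were matched by symbol for 29 of the 34 members, all but Slc7a5, Cth, Ppp1r15b, Slc7a3 and Slc1a5. The letters TGATGCAA on either strand occurred in 5 of the 29 (17.2%) and in 1.03% of 27025 genes. With any base at the sixth letter, TGATGNAA, the counts were 7 of 29 (24.1%) and 4.51% of genes, and every match of the first search is also a match of the second. Of the 7 members, 4 were higher after MA treatment (Trib3, Nupr1, Chac1 and Asns), Vldlr and Pycr1 were not called, and Atf3 was listed at 0. Among all members 16 of the 31 with an adjusted p were higher. The 31 leave out Atf3 and the 7 include it, so these shares have unlike bases. With so few members no difference between them is claimed. Whether the element goes with the rise was not tested. All other higher members with a promoter had no match in this window. They are Atf4, Ddit3, Ppp1r15a, Psat1, Psph, Shmt2, Mthfd2, Aldh18a1, Gpt2 and Slc3a2. A match describes letters in this window and does not show binding. The windows are shown because they let the element be compared between called and uncalled members. Each has the match in capitals with 10 bases on either side and its place counted from the start of the gene at 0, reads 5′ to 3′ on the strand of its gene, and comes from RefSeq on GRCm38.p6. TTGCATCA and TTACATCA are the element read from the opposite strand.
Trib3, chr2:152344029-152344056 (-), 14 to 21 from the start: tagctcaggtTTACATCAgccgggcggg
Nupr1, chr7:126625563-126625590 (-), -110 to -103 from the start: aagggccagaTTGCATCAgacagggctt
Chac1, chr2:119351039-119351066 (+), -193 to -186 from the start: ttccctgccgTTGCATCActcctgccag
Asns, chr6:7693215-7693242 (-), -23 to -16 from the start: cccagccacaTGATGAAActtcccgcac
Vldlr, chr19:27216810-27216837 (+), -200 to -193 from the start: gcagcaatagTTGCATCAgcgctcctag
Pycr1, chr11:120643834-120643861 (-), -103 to -96 from the start: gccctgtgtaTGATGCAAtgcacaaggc
Atf3, chr1:191183426-191183453 (-), -110 to -103 from the start: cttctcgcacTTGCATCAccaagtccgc

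Upstream ATG codons, the other sequence feature tied to this pathway, were counted in the 5′UTR of the longest coding transcript in GENCODE M21. At least 1 was present in 20 of 34 members (58.8%) and in 52.9% of 21710 coding genes, so the members lay close to the background. Atf4 has 3, of which 1 opens a reading frame that overlaps the coding sequence. Ppp1r15a has 7, also with 1 overlapping frame, Atf5 has 2 with 1 overlapping, and Ddit3 and Ppp1r15b have 2 and 3 with none. An overlapping frame was found in 5 members (14.7%) and in 17.7% of coding genes. Trib3, Chac1 and Mthfd2, which rose after MA treatment, have no upstream ATG.

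The m6A data covered 6 of the 34 members with 8 peaks, out of 2643 peaks on 2171 genes. The change of a peak is the deposited estimate, from the Poisson model of exomePeak2, of how far the log2 ratio of IP to input differs between MA and control cells, and need not equal the difference of the pooled ratios. By adjusted p, 2 of the 8 peaks were higher after MA treatment and 0 were lower, against 14.9% higher and 2.57% lower among the 2642 peaks with an adjusted p. Both lie on Ppp1r15b, so 1 gene carries the count. All 8 changes were above 0, that of Slc7a1 by only 0.01, with a median of 0.79 beside 0.20 over all peaks. The peaks of the whole series were thus shifted upward as well. Over all peaks the pooled IP reads were 48.1% of IP plus input reads in control and 62.6% in MA cells, so the shares below are read beside these values. Atf4, Trib3, Ddit3 and all enzymes other than Gpt2 had no peak among these 2643. The paper reports more m6A peaks, on more genes, than were read here. A member without a peak here can therefore not be said to lack m6A.

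The first peak of Ppp1r15b lies before its start codon, in the 5′UTR, and the second spans the start codon and lies mostly in the coding sequence. The first, chr1:133131666-133131715 on the plus strand (mm10), spans 50 bases of the 5′UTR, at -81 to -32 from the start codon. It held 141 input and 75 IP reads in control cells and 57 input and 191 IP reads in MA cells. Its IP share went from 34.7% (exact 95% interval 28.4 to 41.5%) to 77.0% (71.3 to 82.1%), and the change was 1.96 on the log2 scale (adjusted p = 3.05e-05 by exomePeak2). The second, chr1:133131741-133131840, runs from 6 bases before the start codon through 94 coding bases. Its reads were 128 input and 79 IP in control cells and 49 input and 172 IP in MA cells. The share went from 38.2% (31.5 to 45.2%) to 77.8% (71.8 to 83.1%), and the change was 1.80 (adjusted p = 0.000305 by exomePeak2). In both peaks the control share lay below that of all peaks and the MA share above it. The peaks lie closer together than the length of the RNA fragments described in the paper. The same fragments can therefore count in both, and the peaks are not independent observations. These intervals cover counting error only, and the Poisson model behind the adjusted p-values has no term for the spread between libraries.

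Input and IP reads of these peaks moved in opposite directions. The MA input reads were 0.404 and 0.383 of the control input reads, while over all peaks they were 0.744, and the IP reads were 2.55 and 2.18 times those of control against 1.35 over all peaks. The log2 fold change of Ppp1r15b over the gene was 0.08. How much of the change rests on the fall of the input reads was not tested. None of the 3 upstream ATG codons of Ppp1r15b, at -502, -279 and -230 from the start codon, lies in a peak. The coding bases of the second peak are printed because they hold its only match to the consensus of m6A (A, G or T, then A or G, then A and C, then A, C or T). The match is in capitals, the sequence begins with the start codon, and it comes from GENCODE M21 on GRCm38. A match of this kind occurs in the first 94 coding bases of 79.4% of 21663 genes.
Ppp1r15b, chr1:133131747-133131840 (+): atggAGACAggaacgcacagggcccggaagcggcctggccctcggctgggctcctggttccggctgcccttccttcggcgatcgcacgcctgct

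**Figure D3:**
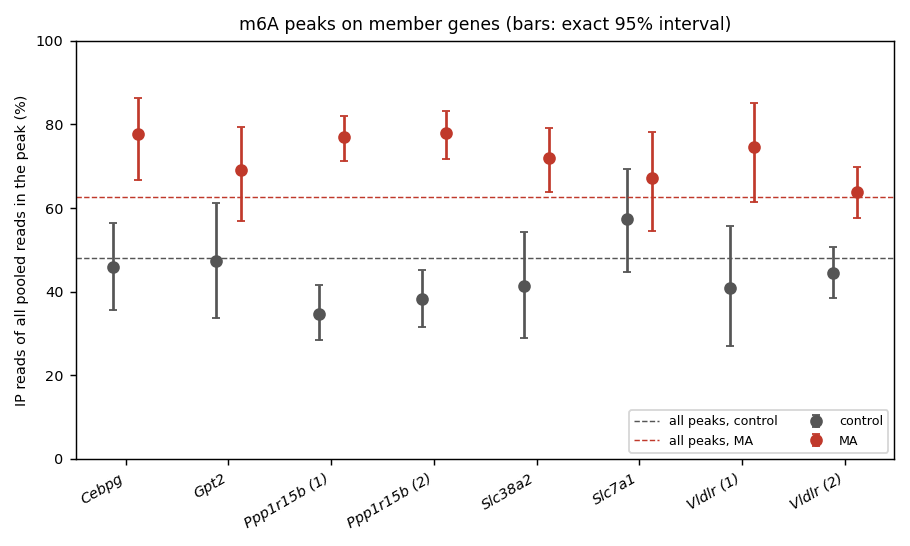
IP reads as a percentage of all pooled reads (y axis) for the 8 peaks on member genes; points are control (grey) and MA (red), bars are exact 95% binomial intervals that cover counting error only, and dashed lines are the shares over all peaks. The intervals of control and MA are far apart for both Ppp1r15b peaks, at 34.7 and 38.2% against 77.0 and 77.8%, and overlap for Slc7a1 and Gpt2.

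The other 6 peaks were not called. Cebpg had a peak in its 3′UTR, chr7:35049047-35049146 on the minus strand, with 52 input and 44 IP reads in control cells and 17 and 59 in MA cells, and a change of 0.89 (adjusted p = 0.136 by exomePeak2). Slc38a2 had one in its 3′UTR, chr15:96687442-96687491 on the minus strand, with 37 and 26 reads in control cells and 41 and 105 in MA cells, and a change of 0.87 (adjusted p = 0.128 by exomePeak2). Its input reads were 1.11 times those of control, and it was the only member peak with more input reads in MA than in control cells.

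Vldlr carried both of its peaks inside the coding sequence on the plus strand. The first, chr19:27238245-27238369, had 29 input and 20 IP reads in control cells and 15 and 44 in MA cells, with a change of 0.70 (adjusted p = 0.207 by exomePeak2). The second, chr19:27243077-27243126, was deeper, with 153 and 123 reads in control cells and 94 and 166 in MA cells, and its change was 0.44 (adjusted p = 0.305 by exomePeak2). Slc7a1 had a peak in the 3′UTR, chr5:148328935-148329059 on the minus strand, with 29 and 39 reads in control cells and 22 and 45 in MA cells, and its change of 0.01 was the smallest (adjusted p = 0.991 by exomePeak2). The peak of Gpt2, chr8:85492676-85492915 on the plus strand, spans 240 bases, of which 25 are exonic and lie in the 5′UTR. Its reads were 29 and 26 in control cells and 22 and 49 in MA cells, and its change was 0.30 (adjusted p = 0.548 by exomePeak2). Apart from the second Vldlr peak, these peaks held 15 to 105 reads in each group. With p-values from the pooled reads alone, adjusted over all peaks and covering counting error only, the Cebpg, Slc38a2 and first Vldlr peaks had adjusted p of 0.0174, 0.0225 and 0.0454. With the change also centred on the median of all peaks, that of Cebpg was 0.0476 and the others were above the threshold.

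**Figure D4:**
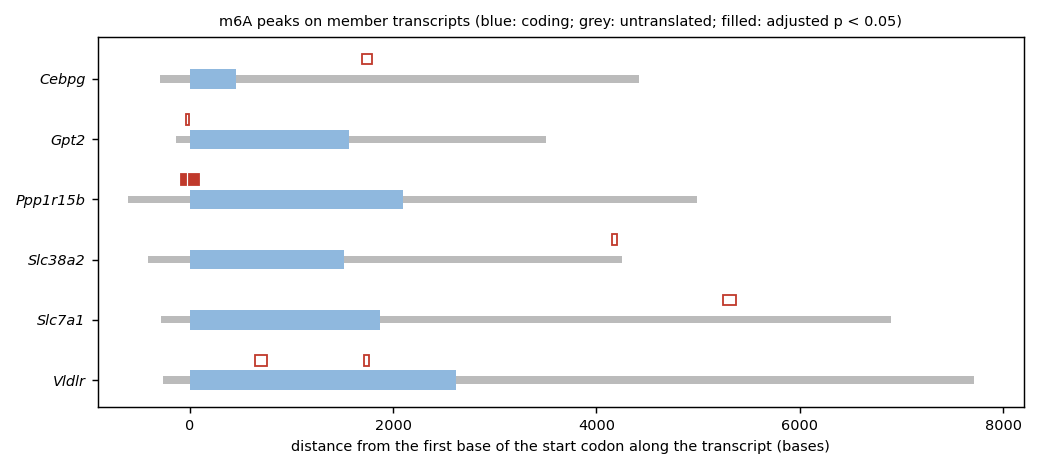
Position of the 8 peaks along the transcripts of the 6 member genes, in bases from the start codon (x axis); thick blue bars are coding sequence, thin grey bars are untranslated regions, and red boxes are peaks, filled where the adjusted p was under 0.05. The filled boxes of Ppp1r15b sit just before and across the start codon. The peaks of Cebpg, Slc38a2 and Slc7a1 lie in the 3′UTR and those of Vldlr within the coding sequence.

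Of the 16 members with higher expression, Gpt2 alone had a peak among those read here, and that peak was not called. Among all members 6 of 34 had a peak. Over the whole series peaks lay on 2171 genes, beside 25239 genes listed for expression, of which 13427 had an adjusted p. The share over all genes thus depends on which genes are counted, and whether 1 of 16 differs from it was not tested. Ppp1r15b, the member with called peaks, had no call for expression. Both readouts rest on the same input libraries, so no correlation between them is given.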

How the data were processed

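MA-treated and control HT22 cells were compared in input and IP libraries (3 per group, 12 in all). Trimming (fastp), alignment to mm10 (HISAT2), quantification (StringTie) and the comparison, taken here as MA input against control input (DESeq2), were done by the authors, with versions not given in the sources used here. From DESeq2 the authors deposited a normalized signal (base mean), log2 fold changes with standard errors, Wald scores and p-values. From exomePeak2 the authors deposited peak read counts pooled by group, log2 ratios and p-values. As no single-library values were analysed, no count model was run and the deposited p-values were used.

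The expression table does not name its numerator. The deposited sign was reversed, so the direction is inferred. The study prints m6A regulators with the deposited sign, as higher or lower after MA, and its supplementary gene list with the opposite sign. It also reports, by quantitative PCR, higher levels of several autophagy genes after MA, with primers that include Rab7, Lamp1, Ctsb, Lamp2 and Ctsd. With the sign reversed these genes were at 2.20, 0.72, 0.64, 0.57 and 0.57, the direction of that report. Tsc1, which also has primers, was not read here. From RNA-seq the paper also reports lysosome and autophagy terms among higher genes and extracellular matrix terms among lower ones. In its protein data autophagosome and lysosome sets were higher after MA. The reversed signs of Lamp1 and Ctsd go the same way, and no set was tested here. The printed signs of the regulators remain in conflict with this direction. Over 365 peaks on genes with an adjusted p under 0.05, MA over control IP reads and the reversed change had a Spearman's rho of 0.51, but IP reads also carry the m6A change, and the input reads, the more direct measure of RNA, gave a rho of 0.00 and did not decide it. Members and lists were chosen with earlier results of these data known. Members that were called, Atf4, and members with a peak are given in full; of the wider pathway list, called genes are named, at most 10 by smallest p, and Slc7a11 was named after its value was seen. Adjusted p-values run over all genes or peaks. Intervals of fold changes are the value ± the 95% normal quantile times SE. Shared stretches of 50 bases and upstream ATG codons were read from GENCODE M21. Scripts used Python 3.11.15, numpy 2.4.6, pandas 2.3.3 and scipy 1.17.1 and were tested on simulated data. Alternatives were other call rules, adjustments, filters, centring, pseudocounts and motif letters.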

Additional observations from a re-analysis of the deposited data

How the results depend on the processing

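Of 38 alternative values, 34 moved by at most 1.5 times, for counts, or by less than their error, for other values. Requiring more than 1.5-fold beside the adjusted p left 5 higher members in place of 16. For m6A, an unadjusted p under 0.05 with 1.2-fold called 4 member peaks, p-values from the pooled reads alone called 5, and centring on the median of all peaks called 3 by adding Cebpg, in place of 2. The change of the first Vldlr peak was 1.42 when computed from pooled reads with a pseudocount of 0.5, against 0.70 as deposited. That of the Slc7a1 peak was -0.04 and -0.06 with pseudocounts of 0.5 and 5, against 0.01, a change of direction within its error. The cause of these differences was not tested. No paired analysis was possible because the columns carry no single libraries, and leaving out each replicate was not run for the same reason. Pooled reads give counting error only, and whether depth limits the calls of peaks was not tested. All directions of expression would turn if the deposited sign were kept.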

Other observations

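Among the 46 further genes of the pathway, m6A was measured at 14 peaks on 11 genes, of which 4 peaks were higher after MA treatment and 0 were lower by adjusted p of exomePeak2. Among all peaks with an adjusted p these shares were 14.9% and 2.57%. The peak of Impact, the inhibitor of GCN2 whose expression was also higher, held 30 input and 12 IP reads in control cells and 13 input and 93 IP reads in MA cells, with a log2 change of 3.23 (adjusted p = 0.000521). A peak of Bcat1, the cytosolic transaminase of branched-chain amino acids, held 218 input and 122 IP reads in control cells and 132 and 369 in MA cells, with a change of 1.69 (adjusted p = 1.84e-06). The other called peaks were on the amino acid carriers Slc6a9, at 1.47 (adjusted p = 0.0137), and Slc38a1, at 1.33 (adjusted p = 0.0497). A second peak of Bcat1, at -0.17 (adjusted p = 0.736 by exomePeak2), was not called. The same holds for a second peak of Slc38a1, at 0.61 (adjusted p = 0.254 by exomePeak2). Bcat1 and Slc6a9 gave no call for expression, with log2 fold changes of 0.39 (SE 0.18) and 0.31 (SE 0.12). Slc38a1 was higher at 0.41 (SE 0.14, adjusted p = 0.0228 by DESeq2). Bcat1, Slc6a9 and Slc38a1 were named after their values were seen.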
